A study of Mus musculus with 9 samples.

Results

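The transcripts described here encode 8 surface or secreted proteins, ligands or receptors, of the signalling between antigen-presenting or myeloid cells and T cells. They were chosen by name as *Cd274*, *Pdcd1lg2*, *Cd80*, *Cd86*, *Vsir*, *Lgals9*, *Havcr2* and *Cd84*, and 1 entry was found for each among the 22064 genes listed. All 8 had values and passed the filter on low counts, as 14108 genes did. The libraries were 9 bulk RNA-seq libraries of neutrophils sorted from lung tissue of female BALB/c mice, with 3 libraries in each of 3 groups. Ly6Ghi and Ly6Glow are the CD45+ neutrophils with high or low surface Ly6g taken at the macrometastatic (MACRO) stage from mice whose mammary fat pad had been injected with 4T1-LM3, a lung-tropic line derived from the mouse mammary carcinoma line 4T1. NL is the Ly6g-high population sorted from normal lung of mice that had received no tumor cells. The labels give neither the age of the mice nor whether a library holds 1 mouse or several, so a p-value here measures the spread between the deposited libraries only. The description field of the NL libraries names only the Ly6g-high group, and their placement in normal lung rests on their titles and treatment fields.

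T cells need a second signal besides antigen. CD80 and CD86, the B7 proteins, deliver it through CD28 on the T cell and restrain the same cell through CTLA-4. PD-L1 (*Cd274*) and PD-L2 (*Pdcd1lg2*) bind the inhibitory receptor PD-1, and PD-L1 on myeloid cells is induced by interferon through JAK, STAT and IRF proteins. VISTA (*Vsir*) is an inhibitory B7-family protein abundant on myeloid cells, galectin-9 (*Lgals9*) is a secreted lectin described as a ligand of TIM-3 (*Havcr2*), and CD84 is a self-binding receptor of the SLAM family.

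The stretches of genome next to the starts of the 2 PD-1 ligand genes, which stood highest in NL, and of *Cd84*, *Lgals9* and *Vsir*, which stood lowest in NL, are shown so that the promoters of these contrasting genes can be read side by side. They are RefSeq sequence on build GRCm38.p6 (mm10), 5′ to 3′ on the strand of the gene. Each runs from 120 bases upstream to the base before the RefSeq start, except that *Lgals9* ends 23 bases upstream, where its own annotated exon begins. The *Cd274* stretch is not clear of other genes: its upstream part overlaps the 5′ end of *Plgrkt* (chr19:29348599-29367390, minus strand). The positions are chr19:29367318-29367437 (plus strand) for *Cd274*, chr19:29410799-29410918 (plus) for *Pdcd1lg2*, chr1:171839577-171839696 (plus) for *Cd84*, chr11:78984947-78985044 (minus) for *Lgals9* and chr10:60346731-60346850 (plus) for *Vsir*. Capitals mark matches to 6 short motifs searched on both strands.
Cd274: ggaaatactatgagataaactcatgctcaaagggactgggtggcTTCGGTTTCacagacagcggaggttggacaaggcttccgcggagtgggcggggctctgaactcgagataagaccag
Pdcd1lg2: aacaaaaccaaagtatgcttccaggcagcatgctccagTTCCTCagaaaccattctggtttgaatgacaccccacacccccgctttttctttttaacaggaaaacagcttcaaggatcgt
Cd84: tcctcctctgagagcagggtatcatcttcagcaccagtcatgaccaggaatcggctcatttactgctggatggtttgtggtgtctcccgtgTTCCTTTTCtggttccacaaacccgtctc
Lgals9: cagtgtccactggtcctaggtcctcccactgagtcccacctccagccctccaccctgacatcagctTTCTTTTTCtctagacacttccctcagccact
Vsir: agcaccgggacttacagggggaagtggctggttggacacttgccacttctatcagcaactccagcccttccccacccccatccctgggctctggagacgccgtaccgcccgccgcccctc

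The motifs were an interferon regulatory factor (IRF) core GAAANNGAA, a PU.1 core GAGGAA, an AP-1 site TGANTCA, a GAS element TTCNNNGAA, a C/EBP site TTGCNNAA and the hypoxia response core ACGTG. Over the 250 bases upstream of the start, which could be read for 7 of the 8 genes (not *Cd86*), the IRF core was found at *Cd274* (76 to 68 bases upstream), *Lgals9* (54 to 46) and *Cd84* (29 to 21), each time on the opposite strand, so that it reads as its reverse complement above. At *Cd274* the core also lies within the span of *Plgrkt*. Of 32851 promoters searched in the same way, 7.13% held this core. The PU.1 core was found at *Pdcd1lg2* (82 to 77 bases upstream), at *Havcr2* and at 2 places at *Lgals9*, against 23.3% of all promoters. The AP-1 site was found at *Cd84*, *Havcr2* and *Cd80*, against 6.75% of promoters, and the hypoxia core at *Havcr2*, against 16.6%. The RefSeq start of *Cd80* used here lies inside its GENCODE span given below, so that its window (chr16:38458683-38458932) is within that span. No GAS element (7.02% of promoters) or C/EBP site (9.56%) was matched in these windows, and *Vsir* matched none of the 6 motifs. The matches are letters in a window and were not tied to any change in level. Genes with an IRF core included 1 that was lower in tumor-bearing lung than in NL (*Cd274*) and 2 that were higher.

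The depth was 15267177 to 17841807 estimated counts in a library. Levels are given as CPM, counts scaled to library size by TMM, as mean ± SD of 3 libraries, and differences as log2 fold changes with the standard error of edgeR's quasi-likelihood model. A gene was called when its Benjamini-Hochberg adjusted p over the 14108 tested genes was at most 0.05 and its log2 fold change exceeded 0.58 in size. An exact permutation test of 3 against 3 libraries cannot go below p = 0.1, so that none is given. *Ly6g* transcript itself stood at 361 to 380.1 CPM in Ly6Ghi, 385 to 403 in Ly6Glow and 118 to 120.2 in NL, so the sorted Ly6Ghi and Ly6Glow cells did not differ in it beyond the threshold (log2 fold change 0.08, SE 0.03, edgeR adjusted p = 0.0577). Replicates differed by more than sampling noise in every pair, and NL replicate 2 stood furthest from its group, with a chi-square per gene of 5.36 and 4.09 against the other NL libraries, which differed from each other by 1.47.

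The NL libraries also differed from the others in their cell type markers. The 8 neutrophil markers, among them *S100a8* and *Cxcr2*, summed to 18540 to 18750 CPM in NL, 69500 to 71320 in Ly6Ghi and 74380 to 76170 in Ly6Glow. The 10 macrophage and monocyte markers summed to 629 to 666 CPM in NL against 493 to 505 in Ly6Ghi and 483 to 502 in Ly6Glow, the 12 alveolar macrophage markers to 2164 to 2207 against 1640 to 1697 and 355 to 376, and the 10 dendritic cell markers to 75.8 to 81.0 against 19.8 to 23.6 and 19.4 to 20.9. T and NK cell markers (8 of 9 with values) summed to 71.6 to 75.4 CPM in NL, 43.5 to 44.8 in Ly6Ghi and 32.0 to 32.4 in Ly6Glow, and the 5 B cell markers to 27.4 to 29.9, 46.3 to 47.3 and 28.1 to 30.0. The 6 epithelial or tumor markers summed to 891 to 987 CPM in NL, 87.5 to 92.4 in Ly6Ghi and 92.6 to 98.0 in Ly6Glow, the 4 endothelial markers to 652 to 697, 107 to 112 and 132 to 139.8, and the 6 eosinophil, basophil and mast cell markers to 2.70 to 4.02, 57.9 to 64.0 and 10.8 to 14.9. No marker was at 0 in all libraries of a group. Several of the 8 genes are also made by macrophages and dendritic cells, and the part of such cells in each difference between groups was not tested. The same holds for the part of any marked cell type in the wider lists below. In bulk libraries a change in the share of a cell type and a change in RNA per cell cannot be told apart.

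**Figure D1:**
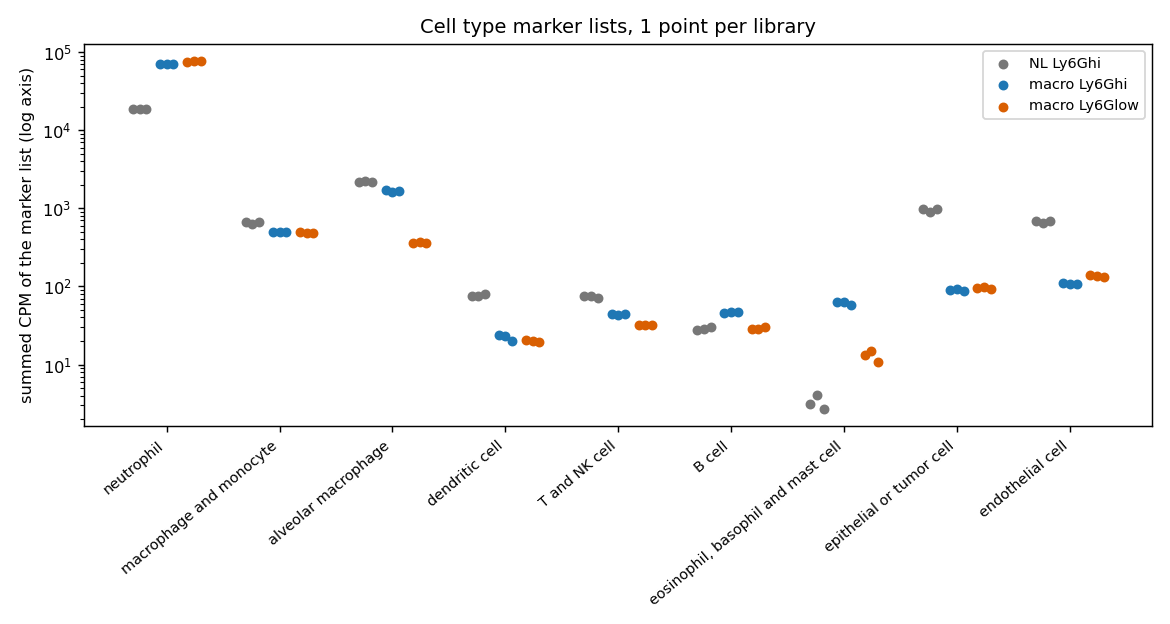
Summed CPM of each cell type marker list (log axis), 1 point per library, with NL in grey, Ly6Ghi in blue and Ly6Glow in orange. The neutrophil sum is lowest in NL at 18540 to 18750 CPM, and the dendritic cell sum is highest there at 75.8 to 81.0 CPM.

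Set against the NL libraries, the 8 genes split in direction. In Ly6Ghi all 8 were called: *Cd84*, *Vsir* and *Lgals9* were higher, and *Cd274*, *Pdcd1lg2*, *Cd80*, *Cd86* and *Havcr2* were lower. In Ly6Glow the same 3 genes were called higher and 4 of the same 5 lower, with *Cd86* short of the fold threshold. Transcripts of the B7 costimulators and both PD-1 ligands were thus lower in Ly6Ghi than in NL, and those of VISTA, galectin-9 and CD84 higher. The neutrophil marker sum was also higher in Ly6Ghi (69500 to 71320 CPM) than in NL (18540 to 18750 CPM). The part of cell composition in these differences was not tested. Between the sorted populations of tumor-bearing lung, *Cd274*, *Cd80* and *Cd84* were higher in Ly6Glow than in Ly6Ghi.

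These counts are read against the whole table, in which many genes differed. Of all tested genes 26.3% were called higher and 36.6% lower in Ly6Ghi versus NL, beside 3 and 5 of these 8. In Ly6Glow versus NL 28.7% were called higher and 40.8% lower, beside 3 and 4 of 8. In Ly6Glow versus Ly6Ghi 9.29% were called higher and 15.9% lower, beside 3 and 0 of 8 by edgeR. DESeq2 also gave 3 and 0, and at an adjusted or unadjusted p of 0.05 with the fold threshold the count stayed 3, while without the fold threshold it was 5 higher and 1 lower. On log2(FPKM + 1) limma called 1 higher and 0 lower, and on log2(FPKM + 0.1) 1 higher and 1 lower. The FPKM also moved several folds of Ly6Glow versus NL by over 1.5 times without a change of direction, and those values stand with each gene. The median log2 fold change of the 8 genes was -0.71 in Ly6Ghi versus NL, -0.48 in Ly6Glow versus NL and 0.35 in Ly6Glow versus Ly6Ghi, beside medians of -0.09, -0.16 and -0.04 over all tested genes. The 3 comparisons share libraries pairwise, so that their values stand side by side and are not separate evidence.

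**Figure D2:**
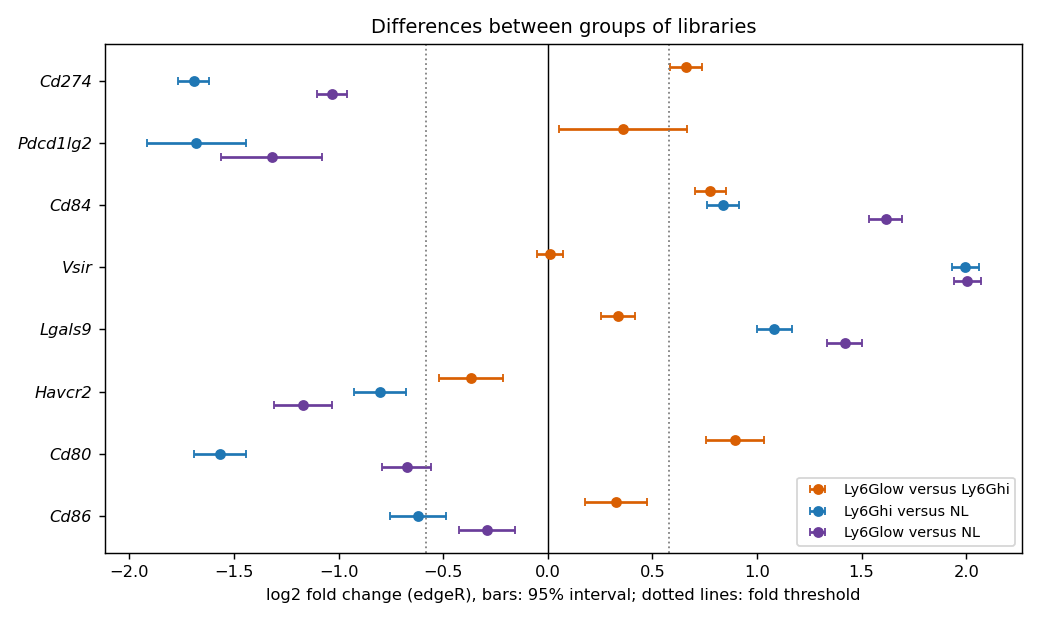
Log2 fold change (horizontal axis) of the 8 genes in Ly6Glow versus Ly6Ghi (orange), Ly6Ghi versus NL (blue) and Ly6Glow versus NL (purple), with bars for the 95% interval and dotted lines at the fold threshold of 0.58. *Vsir* lies near 2 in both comparisons with NL (2.00 and 2.00 on the log2 scale) and near 0 between Ly6Glow and Ly6Ghi, and *Cd274* lies at -1.69, -1.03 and 0.66.

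*Cd274* (NCBI Gene 60533, chr19:29367455-29388095 on GRCm38, plus strand) encodes PD-L1. It stood at 372, 387 and 371 CPM in the NL libraries, at 119.9, 116 and 113.5 in Ly6Ghi and at 184, 177.5 and 191 in Ly6Glow. The 3 groups did not overlap, with NL highest and Ly6Ghi lowest. The level was 377 ± 9.03 CPM in NL, 116.5 ± 3.23 in Ly6Ghi and 184 ± 6.75 in Ly6Glow. Ly6Ghi was thus 3.23-fold lower than NL (log2 fold change -1.69, SE 0.04, edgeR adjusted p = 1.96e-20), and Ly6Glow was 2.05-fold lower (-1.03, SE 0.04, edgeR adjusted p = 5.39e-17). PD-L1 transcript was 1.58-fold higher in Ly6Glow than in Ly6Ghi (0.66, SE 0.04, edgeR adjusted p = 3.82e-12). On log2(FPKM + 1), which carries no correction for library composition, this last difference was 0.41 and fell short of the fold threshold (limma, adjusted p = 2.79e-06), and the fall from NL to Ly6Glow was larger, at -1.71.

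*Pdcd1lg2* (NCBI Gene 58205, chr19:29410919-29471161, plus strand) encodes PD-L2 and lies 22.8 kb downstream of *Cd274*. It was scarce, with 224 to 248 estimated counts per library in NL and 48 to 62.9 in the other libraries. The CPM were 11.1, 11.1 and 10.1 in NL, 3.63, 3.365 and 3.10 in Ly6Ghi, and 5.12, 3.61 and 4.27 in Ly6Glow. NL stood above both other groups, which overlapped, because 1 Ly6Glow library lay below the highest Ly6Ghi library. The fall from NL was 3.20-fold in Ly6Ghi (log2 fold change -1.68, SE 0.12, edgeR adjusted p = 2.27e-11) and 2.50-fold in Ly6Glow (-1.32, SE 0.12, edgeR adjusted p = 1.5e-09; -1.93 on log2(FPKM + 0.1)). Between Ly6Glow and Ly6Ghi the log2 fold change was 0.36 with a 95% interval of 0.05 to 0.67, and it was not called (edgeR adjusted p = 0.0575). The interval of *Pdcd1lg2* includes the *Cd274* value of 0.66, so that at this depth the 2 PD-1 ligands could not be separated in this comparison.

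Within each library *Cd274* FPKM was a large multiple of *Pdcd1lg2* FPKM. The ratio was 32.7 ± 1.58 in NL, 32.5 ± 1.82 in Ly6Ghi and 40.6 ± 6.19 in Ly6Glow (SD, n = 3). The NL and Ly6Ghi means differed by less than their SDs, the Ly6Glow mean lay above them by little more than its own SD, and the libraries of all 3 groups overlapped. The factor by which PD-L1 transcript exceeded PD-L2 transcript thus differed little between NL and Ly6Ghi, while both levels fell.

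**Figure D3:**
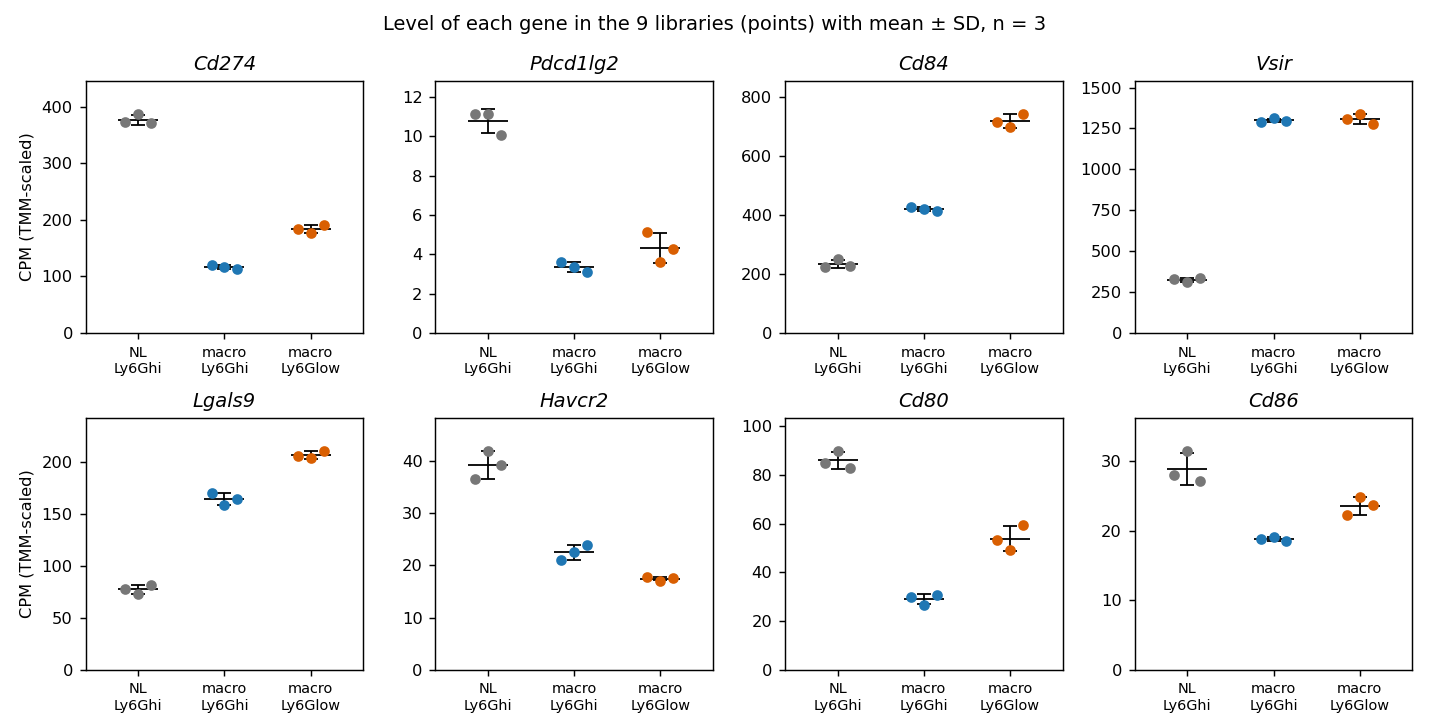
CPM (TMM-scaled, vertical axes from 0) of the 8 genes in NL, macrometastatic Ly6Ghi and macrometastatic Ly6Glow neutrophils, with 1 point per library and bars for the mean ± SD (n = 3). *Cd274*, *Pdcd1lg2*, *Cd80*, *Cd86* and *Havcr2* are highest in NL, and *Cd84*, *Vsir* and *Lgals9* lowest in NL.

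*Cd80* (NCBI Gene 12519, chr16:38455561-38496335, plus strand) encodes a costimulatory ligand of CD28 and CTLA-4. Its CPM were 85.0, 90.1 and 83.1 in NL, 29.96, 26.6 and 30.6 in Ly6Ghi, and 53.1, 49.1 and 59.5 in Ly6Glow, without overlap between groups. The mean was 86.1 ± 3.61 CPM in NL, 29.0 ± 2.16 in Ly6Ghi and 53.9 ± 5.28 in Ly6Glow. The order of the groups was that of *Cd274*. *Cd80* was 2.97-fold lower in Ly6Ghi than in NL (log2 fold change -1.57, SE 0.06, edgeR adjusted p = 7.77e-16) and 1.60-fold lower in Ly6Glow (-0.67, SE 0.06, edgeR adjusted p = 8.29e-10). On log2(FPKM + 1) the fall to Ly6Glow was -1.27. Of the 8 genes it had the largest rise from Ly6Ghi to Ly6Glow, 1.86-fold (0.89, SE 0.07, edgeR adjusted p = 4.26e-10), and 4.42% of all tested genes had a larger log2 fold change.

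*Cd86* (NCBI Gene 12524, chr16:36603869-36666081, minus strand) encodes the other B7 costimulator and lies 1789.5 kb from *Cd80*. Its CPM were 28.0, 31.5 and 27.2 in NL, 18.8, 19.0 and 18.5 in Ly6Ghi, and 22.3, 24.8 and 23.6 in Ly6Glow. The groups came in the same order as for *Cd80* and did not overlap, but lay closer together. The fall from NL to Ly6Ghi was 1.54-fold (log2 fold change -0.62, SE 0.07, edgeR adjusted p = 2.41e-08), and without NL replicate 2, the highest library, it was -0.55 and below the fold threshold (edgeR adjusted p = 1.15e-08). From NL to Ly6Glow it changed by -0.29 on the log2 scale (SE 0.07, edgeR adjusted p = 0.00047), not called. On log2(FPKM + 1) it was -0.90 and past the threshold (limma, adjusted p = 5.92e-08). From Ly6Ghi to Ly6Glow it was 0.33 (SE 0.08, edgeR adjusted p = 0.000883), below the fold threshold, with all Ly6Glow libraries above all Ly6Ghi libraries in CPM. In FPKM Ly6Glow replicate 1 (7.2) lay below Ly6Ghi replicate 2 (7.23).

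The balance of the B7 pair in FPKM followed these differences. *Cd80* exceeded *Cd86* by a ratio of 3.23 ± 0.17 within the NL libraries, 2.60 ± 0.29 in Ly6Glow and 1.80 ± 0.21 in Ly6Ghi. *Cd86* was thus the less abundant costimulator in all 3 groups, and the gap was smallest in Ly6Ghi.

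*Vsir* (NCBI Gene 74048, chr10:60346851-60372684, plus strand) encodes VISTA. Its CPM were 329.9, 312 and 335.5 in NL, 1292, 1312 and 1293 in Ly6Ghi, and 1305, 1339 and 1280 in Ly6Glow. All 6 libraries of tumor-bearing lung stood about level and far above NL, and the Ly6Ghi and Ly6Glow libraries overlapped. *Vsir* was 3.99-fold higher in Ly6Ghi than in NL (log2 fold change 2.00, SE 0.03, edgeR adjusted p = 1.86e-22), and 2.05% of tested genes had a larger log2 fold change. In Ly6Glow it was 4.01-fold higher than in NL (2.00, SE 0.03, edgeR adjusted p = 1.26e-22), and by 1.295 on log2(FPKM + 1). Between Ly6Glow and Ly6Ghi the log2 fold change was 0.01 with a 95% interval of -0.05 to 0.07 (edgeR adjusted p = 0.812), and on log2(FPKM + 1) it turned to -0.23, below the fold threshold (limma, adjusted p = 4.14e-05). *Vsir* lies within the span of *Cdh23* on the opposite strand, and whether the counting used strand is not given in the sources used here. *Cdh23*, named after its values were seen, had 3.61 to 4.33 CPM in NL and 12.0 to 14.7 in the other libraries, far under the *Vsir* level in each.

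*Lgals9* (NCBI Gene 16859, chr11:78962974-78984946, minus strand) encodes galectin-9. Its CPM were 77.8, 72.9 and 81.5 in NL, 169.9, 158 and 164 in Ly6Ghi, and 206, 204 and 211 in Ly6Glow. The groups did not overlap and rose from NL through Ly6Ghi to Ly6Glow. It was 2.12-fold higher in Ly6Ghi than in NL (log2 fold change 1.08, SE 0.04, edgeR adjusted p = 4.65e-16) and 2.67-fold higher in Ly6Glow (1.42, SE 0.04, edgeR adjusted p = 3.31e-18), the latter 0.71 on log2(FPKM + 1). Ly6Glow exceeded Ly6Ghi by 0.33 on the log2 scale (SE 0.04, edgeR adjusted p = 4.37e-07), below the fold threshold. On log2(FPKM + 1) this difference was smaller, at 0.0995 (limma, adjusted p = 0.0459).

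*Havcr2* (NCBI Gene 171285, chr11:46454935-46481255, plus strand) encodes TIM-3, a receptor of T cells, macrophages and dendritic cells. Its CPM ran opposite to those of its ligand, at 36.6, 42.0 and 39.2 in NL, 21.0, 22.6 and 23.9 in Ly6Ghi, and 17.7, 17.1 and 17.5 in Ly6Glow. The groups again did not overlap, with Ly6Glow lowest. The fall from NL was 1.74-fold in Ly6Ghi (log2 fold change -0.80, SE 0.06, edgeR adjusted p = 1.16e-10) and 2.25-fold in Ly6Glow (-1.17, SE 0.07, edgeR adjusted p = 7.21e-13). Ly6Glow lay 0.37 below Ly6Ghi on the log2 scale (log2 fold change -0.37, SE 0.08, edgeR adjusted p = 0.000399), short of the threshold, and on log2(FPKM + 0.1) the value was -0.59 and past it (limma, adjusted p = 1.77e-05). On that scale the fall from NL to Ly6Glow was -1.85. The FPKM ratio of *Lgals9* to *Havcr2* was 3.66 ± 0.39 in NL, 13.5 ± 1.23 in Ly6Ghi and 21.9 ± 0.38 in Ly6Glow, so that ligand and receptor transcripts moved apart by more than the spread between libraries.

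*Cd84* (NCBI Gene 12523, chr1:171839697-171890718, plus strand) encodes the SLAM-family receptor CD84, which binds CD84 on neighbouring cells. Its CPM were 225.5, 251 and 228 in NL, 426, 419.5 and 413 in Ly6Ghi, and 715, 698 and 743 in Ly6Glow. The groups did not overlap, and Ly6Glow was highest in every library. *Cd84* was 3.06-fold higher in Ly6Glow than in NL (log2 fold change 1.61, SE 0.04, edgeR adjusted p = 6.98e-20) and 1.79-fold higher in Ly6Ghi than in NL (0.84, SE 0.04, edgeR adjusted p = 9.14e-15). It was 1.71-fold higher in Ly6Glow than in Ly6Ghi (0.78, SE 0.04, edgeR adjusted p = 1.51e-13). On log2(FPKM + 1) the rise from NL to Ly6Ghi was 0.31 (limma, adjusted p = 1.53e-05) and that from Ly6Ghi to Ly6Glow 0.54 (limma, adjusted p = 4.52e-07), both below the fold threshold, and the rise from NL to Ly6Glow was 0.85, past it.

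Levels can be set against each other only per transcript length, in FPKM. In NL the order was *Cd274* (137 ± 4.63), *Cd84* (122 ± 5.96), *Vsir* (88.9 ± 2.60), *Lgals9* (69.9 ± 3.41), *Cd80* (48.7 ± 1.69), *Havcr2* (19.2 ± 1.51), *Cd86* (15.1 ± 1.35) and *Pdcd1lg2* (4.19 ± 0.24). Each neighbour in this order differed by more than the SDs. PD-L1 was thus the most abundant of the 8 transcripts in the NL libraries and had 27.1% ± 0.43 of the summed FPKM of the 8. These libraries had the lowest neutrophil marker sum, and the part of other cells in this order was not tested.

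In Ly6Ghi *Vsir* led with 257 ± 2.60 FPKM, ahead of *Cd84* (151 ± 4.58) and *Lgals9* (107 ± 3.62), and *Cd274* came next with 30.6 ± 0.75. *Cd80* (12.8 ± 1.31), *Havcr2* (7.97 ± 0.53), *Cd86* (7.12 ± 0.10) and *Pdcd1lg2* (0.95 ± 0.08) followed. PD-L1 had 5.33% ± 0.08 of the summed FPKM and VISTA 44.7% ± 0.85. In Ly6Glow *Cd84* (220.2 ± 6.52) and *Vsir* (219.5 ± 4.52) did not differ beyond their spread, and each had near 35% of the sum (34.98% ± 0.61 and 34.9% ± 1.14). *Lgals9* (115 ± 2.37), *Cd274* (41.2 ± 1.60), *Cd80* (19.7 ± 1.77), *Cd86* (7.61 ± 0.39), *Havcr2* (5.24 ± 0.11) and *Pdcd1lg2* (1.03 ± 0.18) followed, so that *Cd86* and *Havcr2* stood in the reverse order to Ly6Ghi and NL. The ratio of VISTA to PD-L1 FPKM was 0.65 ± 0.04 in NL, 8.39 ± 0.25 in Ly6Ghi and 5.34 ± 0.32 in Ly6Glow.

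**Figure D4:**
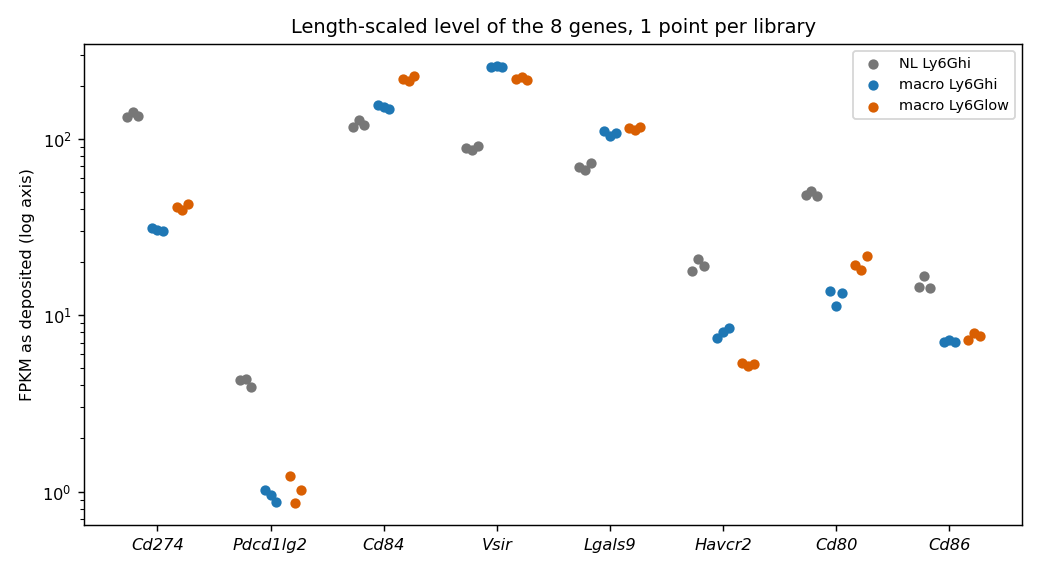
Deposited FPKM (log axis) of the 8 genes, 1 point per library, with NL in grey, Ly6Ghi in blue and Ly6Glow in orange. *Cd274* is the highest in NL at 137 FPKM, *Vsir* the highest in Ly6Ghi at 257 FPKM, and *Pdcd1lg2* the lowest in each group.

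The patterns over the 9 libraries were compared by the Euclidean distance between log2 CPM centred on each gene's mean, where a smaller distance means a more alike pattern. Among the 8 genes *Cd274* lay closest to *Cd80* (0.489) and then to *Pdcd1lg2* (0.529), and *Cd84* to *Lgals9* (0.591). The pairs farthest apart were *Pdcd1lg2* with *Vsir* (4.83) and *Cd274* with *Vsir* (4.82). Among all other tested genes with a mean of at least 10 CPM over the 9 libraries, predicted genes left out, the 2 most alike were *Slfn5* (0.173) and *Herc6* (0.175) for *Cd274*, *Gbp7* (0.198) and *Irgm2* (0.276) for *Cd80*, *Zbtb20* (0.299) and *Gclc* (0.329) for *Pdcd1lg2*, and *Epb41l2* (0.166) and *Clmn* (0.2) for *Cd86*. For the genes that rose they were *Gsr* (0.111) and *Abtb1* (0.126) for *Vsir*, *Retreg2* (0.088) and *Slc35e1* (0.12) for *Lgals9*, and *Prkaa1* (0.119) and *Prnp* (0.122) for *Cd84*. *Dnajc11* (0.136) and *Chka* (0.184) were the most alike to *Havcr2*.

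Wider lists place the 8 genes among others of the same roles. Of 20 tested genes for other coinhibitory surface or secreted proteins, 7 were called higher and 6 lower in Ly6Ghi versus NL, 9 and 6 in Ly6Glow versus NL, and 3 and 3 in Ly6Glow versus Ly6Ghi. The shares over all tested genes were 26.3% and 36.6%, 28.7% and 40.8%, and 9.29% and 15.9%. *Siglece*, which encodes an inhibitory sialic acid receptor, rose with *Vsir*, from 118 CPM in NL to 469 in Ly6Ghi (log2 fold change 1.99, SE 0.04, edgeR adjusted p = 9.23e-22) and 614 in Ly6Glow. *Nectin2*, a ligand of TIGIT and CD226, rose from 10.7 CPM to 34.0 and 44.2, with log2 fold changes of 1.67 and 2.05. *Cd200*, whose protein restrains myeloid cells, fell from 41 CPM in NL to 4.56 and 2.75 (-3.17 and -3.90), and *Nectin3* from 13.7 CPM to 1.29 and 1.28 (-3.39 and -3.43). The epithelial and endothelial marker sums were also far higher in NL. The part of such cells in these falls, and in that of *Icam1* below, was not tested. *Ceacam1*, an adhesion protein described as a further TIM-3 ligand, was highest in Ly6Ghi, at 444 CPM against 122 in NL (1.87) and 241.5 in Ly6Glow (-0.88 for Ly6Glow versus Ly6Ghi). From Ly6Ghi to Ly6Glow *Cd101*, an inhibitory receptor, rose from 46.8 to 122 CPM (1.38, SE 0.06, edgeR adjusted p = 7.88e-15), *Fgl2* from 237 to 433 (0.87), and *Lgals1*, another galectin gene, fell from 30.6 to 14.7 (-1.05).

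Of 9 other costimulatory genes tested, 5 were called lower and 1 higher in Ly6Ghi versus NL (36.6% and 26.3% of all tested genes), and 6 lower and 1 higher in Ly6Glow versus NL (40.8% and 28.7%). In Ly6Glow versus Ly6Ghi 2 were called lower and 0 higher (15.9% and 9.29%). The 2 were *Cd83* and *Tnfsf8*, the latter scarce and with overlapping libraries (3.73 CPM in Ly6Ghi, 2.43 in Ly6Glow). *Icam1*, the adhesion ligand of LFA-1, fell from 423 CPM in NL to 92.3 in Ly6Ghi (log2 fold change -2.20, SE 0.04, edgeR adjusted p = 2.1e-22). *Cd83*, a marker of activated antigen-presenting cells, was at 19.3 CPM in Ly6Ghi and 9.91 in Ly6Glow (-0.96, SE 0.10, edgeR adjusted p = 2.12e-08).

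Among 10 tested genes of the SLAM family and its adaptors besides *Cd84*, 7 were called lower and 1 higher in Ly6Ghi versus NL, 8 lower and 1 higher in Ly6Glow versus NL, and 2 lower and 1 higher in Ly6Glow versus Ly6Ghi. Of all tested genes 36.6%, 40.8% and 15.9% were called lower in these comparisons, and 26.3%, 28.7% and 9.29% higher. The single gene called higher each time was *Cd244a*, which encodes the receptor 2B4 and moved as *Cd84* did, from 21.4 CPM in NL to 55.8 in Ly6Ghi and 112 in Ly6Glow (2.38 for Ly6Glow versus NL, SE 0.05, edgeR adjusted p = 5.94e-21). The adaptor gene *Sh2d1b1* fell from 20 CPM in NL to 1.42 in Ly6Glow (-3.81), *Slamf9* from 10.7 to 0.63 (-4.09) and *Slamf8* from 10.1 CPM to 1.84 in Ly6Ghi and 1.27 in Ly6Glow (-2.46 and -2.99).

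Of the 14 genes known to act on PD-L1, 5 were called higher, 2 lower and 7 neither in Ly6Ghi versus NL, where 26.3% of all tested genes were called higher and 36.6% lower. In Ly6Glow versus NL 8 were called higher and 2 lower, against 28.7% and 40.8% of all tested genes. *Cd274* was lower in both. *Ifngr1*, the interferon gamma receptor chain that binds the cytokine, rose from 117 CPM in NL to 367 in Ly6Ghi and 476 in Ly6Glow (log2 fold changes 1.65 and 2.02), and *Cmtm6*, whose protein protects PD-L1 from degradation, from 241 to 741 and 1103 (1.62 and 2.20). *Cmtm4*, its paralog, fell from 14.7 CPM to 2.55 in Ly6Ghi (-2.52). In Ly6Glow versus Ly6Ghi the 5 genes called were all higher (9.29% of all tested genes were), as *Cd274* was: *Hif1a* rose from 482 to 863 CPM (0.84, SE 0.04, edgeR adjusted p = 2.58e-13) and *Jak2* from 292 to 476 (0.71, SE 0.04, edgeR adjusted p = 1.28e-12).

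The receptors of these ligands and other coreceptors of T and NK cells had group means of up to 35.65 CPM, reached by *Tigit* in NL. Of 11 tested, 7 were called lower in Ly6Ghi versus NL, 8 lower in Ly6Glow versus NL, and 1, *Lag3*, lower in Ly6Glow versus Ly6Ghi, against 36.6%, 40.8% and 15.9% of all tested genes. *Pdcd1*, which encodes PD-1, stood at 4.85 CPM in NL, 1.91 in Ly6Ghi and 1.50 in Ly6Glow. Per transcript length it had 3.37, 0.96 and 0.64 FPKM, beside 137, 30.6 and 41.2 FPKM of its ligand gene *Cd274*. *Cd28* stood at 11.3, 5.62 and 4.87 CPM, and *Ctla4* at 11.5, 8.81 and 7.52 CPM. *Pdcd1*, *Cd28* and *Ctla4* were named here as the receptors of the ligands described above. The summed T and NK cell markers were likewise highest in NL (71.6 to 75.4 CPM) and lowest in Ly6Glow (32.0 to 32.4), and the part of such cells in these levels was not tested.

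**Figure D5:**
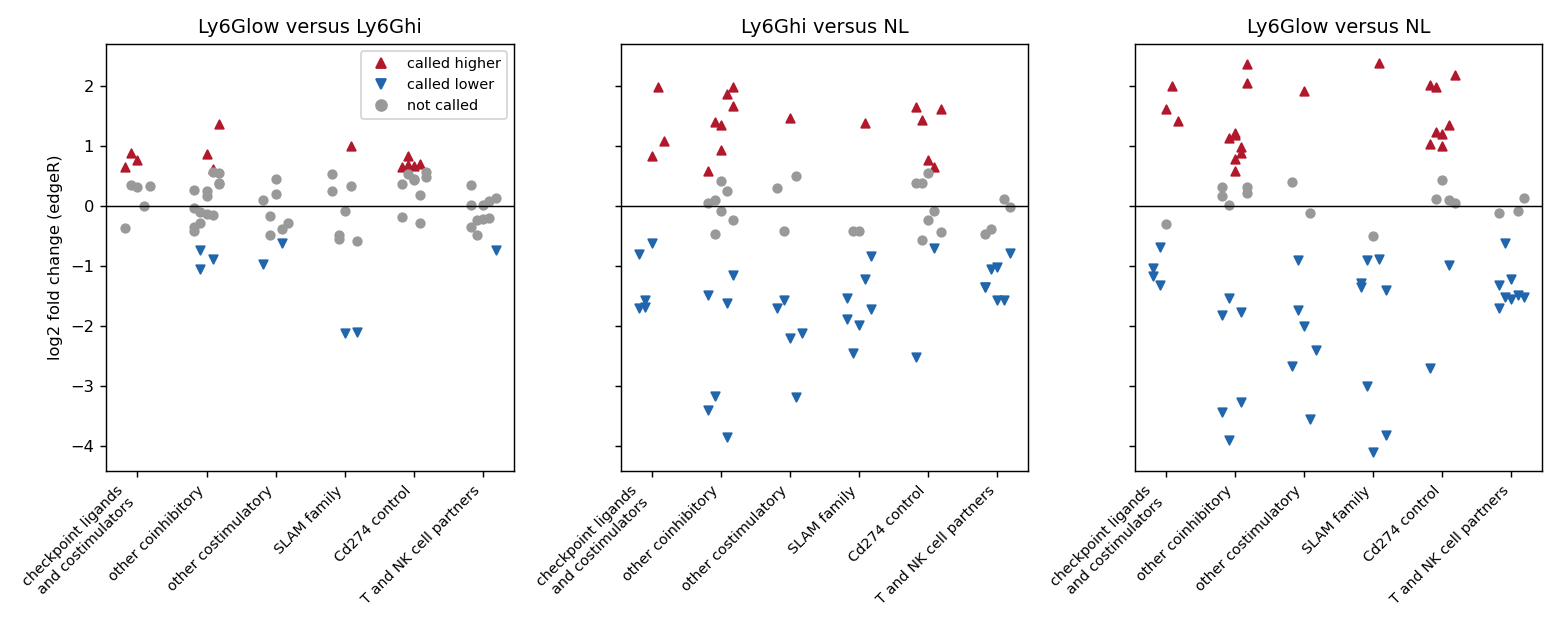
Log2 fold change (vertical axis) of each tested gene in the 8-gene set and in the wider lists, in 3 panels for Ly6Glow versus Ly6Ghi, Ly6Ghi versus NL and Ly6Glow versus NL. Red triangles are genes called higher, blue triangles genes called lower and grey points genes not called. In Ly6Glow versus Ly6Ghi the 5 called genes of the *Cd274* control list lie above 0, and relative to NL 7 and 8 of the 10 SLAM-family genes were called lower.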

How the data were processed

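RNA of sorted lung neutrophils was sequenced in 9 libraries. The authors deposited an estimated count and an FPKM value per gene and library. The deposited estimated counts were not normalized (37.9% of them whole) and were rounded here before testing, and the FPKM values were scaled by the authors for transcript length and depth. The submitters' processing notes name mm10, and the aligner and counter are not given in the sources used here. The labels describe strand-specific libraries, but not whether counting used strand, so that reads of *Cd274*, *Pdcd1lg2* and *Vsir* cannot be told apart from those of genes annotated on the opposite strand.

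Of 22064 genes listed, 3739 were blank, 18325 had values and 14108 passed edgeR's filterByExpr by group. Testing used edgeR 4.0.16 under R 4.3.3 (TMM factors of 0.80 to 0.81 in Ly6Glow, 0.95 in Ly6Ghi and 1.30 to 1.32 in NL; quasi-likelihood test, all 9 libraries, group as the only term, biological coefficient of variation 0.0346). Depth was 15267177 to 17841807 counts per library. A call required both a Benjamini-Hochberg adjusted p no higher than 0.05 and a log2 fold change beyond 0.58 in either direction. The FPKM values were tested with limma 3.58.1, and DESeq2 1.42.0 was run as an alternative. The fit was tested on simulated data.

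Named were all 8 genes, *Ly6g*, markers, and the 2 genes of most alike pattern for each of the 8 (predicted genes left out). Also named were, per comparison, up to 5 largest rises and 5 largest falls among called genes of 4 wider lists. These had at least 10 CPM in the higher group. *Tnfsf8*, *Lag3* and *Tigit* were named outside this rule, as were genes whose naming is explained where they occur. *Cd48* counts in both the costimulatory and the SLAM family list, so the counts of these lists are not separate. Of the 60 genes in these 4 lists, 52 were tested. The 8 genes and all lists were chosen with earlier results of these data known. Gene positions are GENCODE M21 on GRCm38.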

Additional observations from a re-analysis of the deposited data

How the results depend on the processing

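The log2 fold changes of the 8 genes and of the genes named from the 4 wider lists, and the counts of calls among the 8, the 4 lists together and all genes, were recomputed under 22 alternatives. FPKM ratios, orders and shares, pattern distances, marker sums, the counts of single lists and of T and NK cell receptors, and the *Cd274* neighbours were not. The count of called genes among the 8 was 8 in Ly6Ghi versus NL and 7 in Ly6Glow versus NL, and it stayed at 7 to 8 in both without each library in turn, and at 3 in Ly6Glow versus Ly6Ghi. In Ly6Glow versus Ly6Ghi it was 1 on log2(FPKM + 1), 2 on log2(FPKM + 0.1), 1 with FPKM of at least 1 in 3 libraries, 6 without the fold threshold and 0 at a threshold of 1. In Ly6Ghi versus NL it was 5 at a threshold of 1. The 16 calls in the wider lists of Ly6Glow versus Ly6Ghi became 38 without and 5 at a threshold of 1, and ranged from 15 to 18 without each library in turn. The 3560 calls over all genes became 2243 on log2(FPKM + 1), 2223 with the FPKM filter, 7868 without a fold threshold and 1305 at a threshold of 1.

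The direction of *Vsir* in Ly6Glow versus Ly6Ghi was not fixed: its log2 fold change was -0.0092 without the count filter, -0.23 on log2 FPKM with a pseudocount of 1 (filtered or not) or 0.1, and -0.0109 to 0.0207 without each library in turn (lowest without Ly6Glow replicate 2). The other 7 genes kept their direction in the 3 comparisons under all 22 alternatives. Upper-quartile scaling moved the median of all genes from -0.09 to -0.28 in Ly6Ghi versus NL and from -0.16 to -0.35 in Ly6Glow versus NL, and log2(FPKM + 1) to -0.32 and -0.49. On log2(FPKM + 1) the share of all calls that were higher fell from 41.8% to 21.8%, from 41.3% to 14.9%, and from 36.8% to 14.3% in Ly6Glow versus Ly6Ghi.

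No pairing of libraries by replicate number was detected (correlations of deviations -0.0683 to 0.0579). These correlations do not show whether Ly6Ghi and Ly6Glow libraries of the same number came from the same mice. With a replicate block 3, 8 and 7 of the 8 genes were called, as without it, and 3522, 8856 and 9775 of all genes, against 3560, 8874 and 9809. Precision was lowest for *Pdcd1lg2*, at 48 to 248 counts per library.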

Other observations

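The protein-coding neighbours of *Cd274* within 200 kb on GRCm38, chosen after values were seen, did not all move with it. *Jak2*, upstream at chr19:29251828-29313080, was higher in Ly6Ghi than in NL (log2 fold change 0.65, SE 0.04) and in Ly6Glow than in NL (1.35, SE 0.04), where *Cd274* was lower in both. *Plgrkt*, which is transcribed away from *Cd274* on the opposite strand, had log2 fold changes of -0.62 (SE 0.07), -0.23 (SE 0.07) and, in Ly6Glow versus Ly6Ghi, 0.39 (SE 0.08). *Ric1*, downstream of *Pdcd1lg2*, had -0.07 (SE 0.04), 0.37 (SE 0.04) and 0.44 (SE 0.04). *Cd274* had -1.69, -1.03 and 0.66. *Insl6* was measured with little precision, with standard errors of 0.51 to 0.86. It was called lower than NL, as *Cd274* was, in Ly6Ghi (-1.11, edgeR adjusted p = 0.0473) and in Ly6Glow (-2.6, edgeR adjusted p = 0.00172). In Ly6Glow versus Ly6Ghi it was -1.49 (edgeR adjusted p = 0.15), not called.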
